A study of Talpa occidentalis with 24 samples.

Results

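The regions described here are distal enhancers of the Iberian mole, Talpa occidentalis, that carried an active chromatin state in the testicular part of the ovotestis and in neither the ovarian part of the ovotestis nor the testis. They were taken from chromatin state segmentations, in which the genome is cut into bins of 200 bp and each bin is given 1 of 7 named states. A distal enhancer is an active enhancer stretch, 400 bp or longer, with no promoter or bivalent promoter stretch of any of the 3 tissues within 2 kb. Stretches that overlapped between tissues were merged, scaffolds 15 and 18 were left out, and a region counted as active in a tissue when any of its bases was in the promoter or active enhancer state there. Of 62589 merged regions, 9296 were active in the testicular part only (percent called 14.9). The regions were chosen by the state calls of all 3 tissues, so their number and their inactive state elsewhere follow from the choice and are given as a description.

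The labels give 3 groups of wild type animals at postnatal day 7. These are the testicular part of the ovotestis, the ovarian part of the ovotestis, and the testis, with 8 libraries each. Each group holds 4 histone marks with 2 replicates per mark, and the authors combined these 8 libraries into 1 segmentation per tissue. The labels do not say how many animals were used or whether animals were pooled. No difference between tissues therefore has a replicate check, no test was run, and the depth behind the calls is unknown. The tissue labels were not checked against marker genes, because gene positions on this assembly were not used here. The gonad pieces are mixtures of cells, so a mark present in fewer cells and a mark that is weaker in each cell cannot be told apart.

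Females of this mole carry ovotestes in place of ovaries. The ovarian part holds the germ cells, while the testicular part lacks them and is rich in Leydig cells, which make androgens. Enhancers are stretches of DNA that raise the transcription of genes at a distance. They carry H3K4me1 whether or not they are in use, gain H3K27ac when active, and are usually called poised or primed when H3K4me1 stands without H3K27ac. H3K27me3, the mark of Polycomb complexes, lies over silenced regions. Enhancers vary more between cell types than promoters do, which makes the set active in 1 tissue a common way to describe that tissue. How the authors' state names relate to the marks is not given in the sources used here, and the names are used as deposited.

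Enhancers active in the testicular part only were short. They covered 9.47 Mb, with a median length of 1000 bp, quartiles of 600 and 1200 bp and a longest region of 6600 bp. The median was 800 bp for the 7515 regions of the ovarian part only (12 percent of the merged regions), 1000 bp for the 10573 of the testis only (16.9 percent), 1600 bp for those shared by testicular part and testis, and 2400 bp for those active in all 3 tissues. A merged region can grow longer by joining stretches of several tissues, so the shared classes are not on equal terms with the classes of 1 tissue. Of the regions of the testicular part only, 433 (4.66%) were longer than 2 kb, against 3.90% of those of the ovarian part only and 11.8% of those of the testis only.

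The share of the enhancers of the testicular part that was active in neither other tissue was lower at greater length. A single active base elsewhere removes a region, so a longer stretch has more bins that can remove it, and a decline with length is in part built into the rule. Of its 42043 distal enhancers, 22.1% were active there only (Wilson 95% interval 21.7 to 22.5, which covers counting only). Over all lengths the same share was 22.0% of 34177 in the ovarian part and 25.9% of 40756 in the testis. In the testicular part at 400 bp, the shortest length admitted, 1325 of 2725 (48.6%) were active there only. At 1000 bp the share was 32.7%, at 1600 to 2000 bp it was 12.6%, and at 5200 bp or more it was 0.427%, or 6 of 1406. A decline was seen in all 3 tissues. Up to 1000 bp the share of the testicular part stood above that of the ovarian part, with 32.7% against 21.9% at 1000 bp, and at 800 and 1000 bp close to that of the testis, with 32.6% at 1000 bp in the testis. Between 1600 and 3000 bp it was nearer to the ovarian part: at 2200 to 3000 bp it was 6.15% in the testicular part, 6.59% in the ovarian part, 14.4% in the testis. At 5200 bp or more it was 0.427% in the testicular part (Wilson interval 0.196 to 0.928), below the 1.74% of the ovarian part (0.947 to 3.17) and the 2.15% of the testis (1.58 to 2.93).

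**Figure D1:**
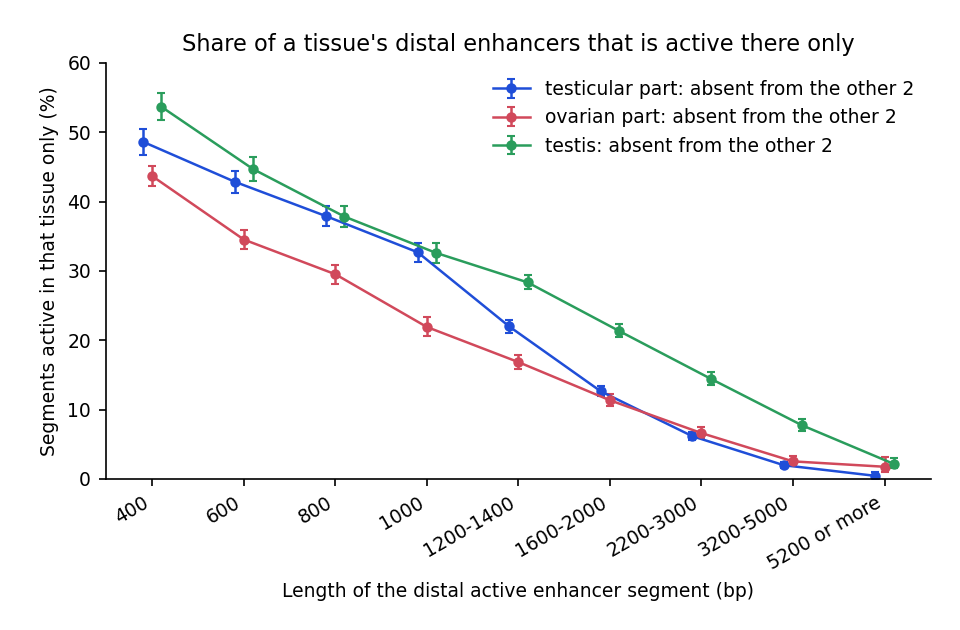
Percent of each tissue's distal active enhancer segments that share no base with an active state of the other 2 tissues (y axis), by segment length in bp (x axis, classes of unequal width); points are the 3 tissues and bars are Wilson 95% intervals, which cover counting only. The testicular part starts at 48.6% for 400 bp, is close to the testis at 800 and 1000 bp and lies near the ovarian part from 1600 to 3000 bp; at 5200 bp or more it is lowest, at 0.427%.

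The limits of the rule left few regions in doubt by promoter distance and more by length. A further 897 stretches of 200 bp met every other condition, against 1325 members of 400 bp and 1623 of 600 bp. Members between 2200 and 3000 bp from a promoter state numbered 129, and as many stretches lay 1000 to 2000 bp away and were left out. A further 378 otherwise qualifying stretches lay under 1000 bp away and were also left out. Another 411 otherwise qualifying stretches held a single bin of 200 bp that was active in the ovarian part, 305 a single bin active in the testis, and 26 held 1 such bin of each. These are stretches before merging, and the merged region can hold more active bases of the other tissue. With up to 200 bp of active state allowed in each other tissue, there were 9811 members in place of 9296.

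In the other tissues these regions were mostly in the poised enhancer state. The rule bars the promoter and active enhancer states there, and no member held a bivalent promoter base, since these lie more than 2 kb away. Of the members' bases, 91.4% were poised in the ovarian part, 7.73% undefined, 0.773% in the Polycomb state and 0.108% in the gap state. In the testis 91.7% were poised, 6.90% undefined, 1.30% Polycomb and 0.0507% gap. Over the whole segmentation, scaffolds 15 and 18 aside, the poised state took 23.2% of the ovarian part and 21.6% of the testis. Read by region, 6930 of the 9296 (74.5%, Wilson interval 73.7 to 75.4) were poised over their whole length in both other tissues. Those with no poised base in either numbered 87 (0.936%, 0.759 to 1.15).

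The share of regions wholly poised elsewhere was lower in both other classes of 1 tissue, but high poising was shared with the classes of 2 tissues. Of the regions of the ovarian part only, 67.3% (66.3 to 68.4) were wholly poised in both the testicular part and the testis, and of those of the testis only, 59.7% (58.8 to 60.7) were wholly poised in both parts of the ovotestis. Length was not matched here, and a longer region is less easily in 1 state throughout. Regions over 2 kb made up 4.66% of the members, 3.90% of the ovarian part only and 11.8% of the testis only. Regions with no poised base in either other tissue made up 5.23% of the class of the ovarian part only and 5.05% of that of the testis only. Polycomb state was also scarcer over the members than over the other classes of 1 tissue, when read in the same tissue. In the testis it covered 1.30% of the members' bases, against 6.30% of the bases of the regions of the ovarian part only. In the ovarian part it covered 0.773%, against 1.69% for the regions of the testis only. Shared classes were closer to the members. Polycomb state covered 1.69% in the testis for both parts of the ovotestis, and 0.989% in the ovarian part for testicular part and testis. Regions shared by testicular part and testis were poised over 91.7% of bases in the ovarian part, where the members had 91.4%. Regions shared by both parts of the ovotestis were poised over 92.9% in the testis, where the members had 91.7%, and regions shared by ovarian part and testis over 95.2% in the testicular part. The Wilson intervals treat regions as independent, which neighbouring regions are not, and no test of the difference between classes was run.

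**Figure D2:**
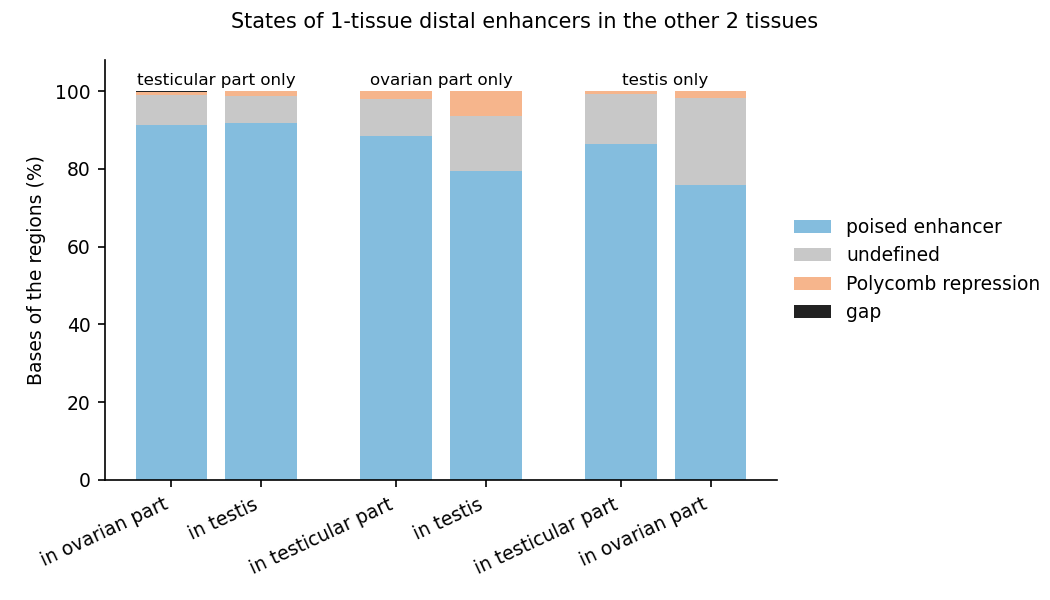
Percent of bases (y axis) of the distal enhancers active in 1 tissue only by their state in each of the other 2 tissues; each bar is 1 class in 1 other tissue and the colours are the states. Regions of the testicular part only are poised over 91.4% of bases in the ovarian part against 91.7% in the testis, and the regions of the testis only over 75.8% in the ovarian part.

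A minority of members lay outside the poised state in 1 tissue and within it in the other. At least 50% of the length was undefined in the ovarian part and at least 50% poised in the testis for 632 regions (6.80%), and 498 (5.36%) showed the opposite. Polycomb state over at least 50% of the length was found in both other tissues for 14 regions, in the ovarian part and not the testis for 64, and in the testis and not the ovarian part for 113. The testis also had more Polycomb state over the genome, with 7.94% of bases against 4.99% in the ovarian part.

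The longest regions under Polycomb in both other tissues measured 1400 bp or less. They lay on scaffold 2 at 21198401 to 21199800 and 144635201 to 144636600, on scaffold 5 at 122177401 to 122178800, on scaffold 7 at 116708401 to 116709800 and on scaffold 17 at 58849201 to 58850200. All 5 were Polycomb over 100% of their length in both other tissues. The region on scaffold 7 lay 3.0 kb from the nearest promoter or bivalent promoter state of any tissue, and the one at 144635201 on scaffold 2 lay 78.2 kb away. Positions are those of the talOcc4 assembly and count from 1. Which genes lie there is not given, because no gene models of this assembly were used here.

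Of the longest regions that were mostly undefined in both other tissues, those on scaffold 6 at 46769201 to 46771200 and on scaffold 2 at 51861001 to 51863000 were undefined over nearly all of their length. The first was undefined over 100% of its length in both tissues, and the second over 100% in the ovarian part against 90% in the testis. The longest, 2600 bp on scaffold 10 at 68517001 to 68519600, was undefined over 61.5% and poised over 38.5% in each of the other tissues. It lay 489.6 kb from the nearest active stretch of the ovarian part and 453.4 kb from that of the testis. The remaining pair lay on scaffold 14 at 59272401 to 59274600 and on scaffold 6 at 107582601 to 107584600, undefined over 54.5% and 50% in the ovarian part and over 100% in the testis.

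Stretches of enhancer state through these regions were longer in the testicular part, where the stretch includes the active member, and the same held for the other classes of 1 tissue in their own tissue. In the testicular part, 98.1% of the members with bases on both sides were flanked by the poised state on both sides. A stretch of poised, active enhancer or promoter state that ran through the member had a median length of 6.3 kb there over all members (quartiles 3.6 and 11.8 kb). In the ovarian part 84.2% of members lay wholly within such a stretch, of median length 4.2 kb, and in the testis 87.0%, with a median of 4.6 kb, both taken over the members wholly inside. For the regions of the ovarian part only the median was 6.6 kb in the ovarian part, 4.6 kb in the testicular part and 5.0 kb in the testis. For those of the testis only it was 8.6 kb in the testis, 5.4 kb in the testicular part and 4.8 kb in the ovarian part. No stretch of this kind touched 624 members in the ovarian part against 600 in the testis. In the ovarian part 25% of these stretches held an active base elsewhere in the stretch, and in the testis 30.3% did, against 40.2% in the testicular part outside the member itself.

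Around the centres of 9077 members with 10 kb of scaffold on both sides, the poised share fell steeply within a few kilobases in the ovarian part and the testis. In the testicular part it was 0% at the centre by the rule, reached 82.7% at 0.8 kb after it and fell beyond. At 2 kb after the centre it was 53.4% in the testicular part, 39.6% in the ovarian part, 40.2% in the testis. At 5 kb it was 37.8% in the testicular part, 33.4% in the ovarian part, 32.3% in the testis. The active states took 10.4% of members there in the testicular part, 5.31% in the ovarian part, 7.82% in the testis. At the centre itself 92.1% of members were poised in the ovarian part against 92.8% in the testis. The orientation along the scaffold is arbitrary, and 2 kb before the centre the poised share was 55.9% in the testicular part, 41.3% in the ovarian part, 41.5% in the testis.

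**Figure D3:**
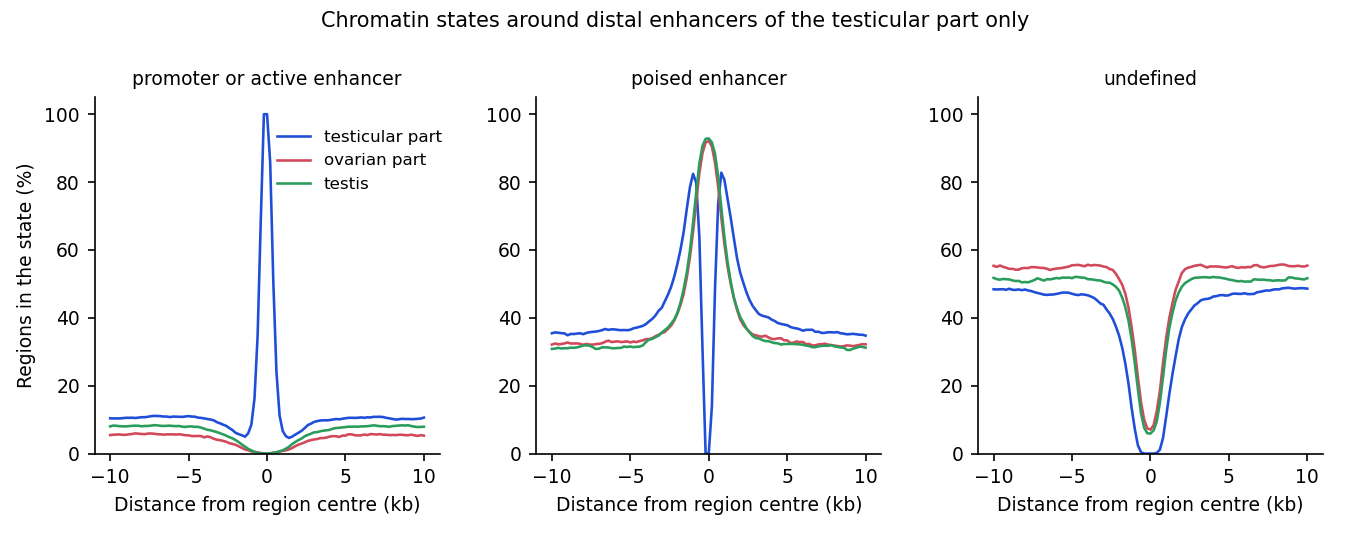
Percent of members (y axis) in the promoter or active enhancer state, the poised enhancer state and the undefined state, by distance from the member's centre in kb (x axis), in the testicular part, the ovarian part and the testis; the active state at the centre of the testicular part follows from the rule. The poised state peaks at 92.1% in the ovarian part against 92.8% in the testis at the centre and is 33.4% in the ovarian part against 32.3% in the testis 5 kb after it.

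Few of these regions lay at the edge of a stretch that was active elsewhere. Active stretches of the ovarian part or the testis came within 1 kb of 793 members (8.53%, Wilson interval 7.98 to 9.12) and touched 99 (1.06%). Within 1 kb the share was 4.63% for the ovarian part and 5.63% for the testis. The nearest active stretch of either tissue lay at a median of 7.7 kb, with 12.4 kb for the ovarian part and 10.6 kb for the testis. The next active stretch of the testicular part itself lay at a median of 6.6 kb. The share within 1 kb of an active stretch of either other tissue was 11.2% for the regions of the ovarian part only and 8.81% for those of the testis only.

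At the other end, some members stood far from all activity of the other tissues. A region of 1000 bp on scaffold 14 at 52924601 to 52925600 lay 560.8 kb from the nearest active stretch of the ovarian part and 650 kb from that of the testis, and was wholly poised in both. One of 600 bp on scaffold 11 at 45770001 to 45770600 lay 850.2 kb away from the ovarian part's and 533.4 kb from the testis's, and was also poised in both. On scaffold 5 at 90690801 to 90692200 the distances were 508.4 kb for the ovarian part and 507.8 kb for the testis, with the region poised in the ovarian part and undefined in the testis. A pair on scaffold 6, at 18257601 to 18258400 and 18263401 to 18264200, stood 5.0 kb apart and at least 480.8 kb from any active stretch of the ovarian part and 668.6 kb from any of the testis. No promoter or bivalent promoter state of any tissue lay within 1315.6 kb of either.

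Enhancers active in the testicular part only had the longest median distance to promoters of the 7 classes. Their median distance to the nearest promoter or bivalent promoter state of any tissue was 54.0 kb, with quartiles of 21.8 and 130.25 kb. It was 32.6 kb for the regions of the ovarian part only and 37.4 kb for those of the testis only. The classes shared by several tissues had medians of 41.4 kb for testicular part with testis, 41.2 kb for both parts of the ovotestis, 27 kb for ovarian part with testis, and 29.4 kb for all 3 tissues. Beyond 100 kb lay 2887 members (31.9%), against 19.8% of the regions of the ovarian part only and 23.2% of those of the testis only. The limit of 2 kb applies to every class alike. The 244 members on scaffolds that hold no promoter state have no such distance and were left out of these values.

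The members also had the longest median of all classes at matched length. At 400 to 600 bp the median was 48.7 kb for the testicular part only, 32.0 kb for the ovarian part only and 34.4 kb for the testis only. At 1200 to 2000 bp it was 60.6 kb for the testicular part only, 34.7 kb for the ovarian part only and 40.8 kb for the testis only. Under 12 of 12 other settings of the rule the members' median was again the longest. It lay between 53 and 58 kb, and the medians of the 6 other classes between 24.6 and 47.0 kb. The setting that counted only the active enhancer state as active could not change these medians, since no distal region holds a promoter base. Measured to promoter states of the testicular part alone, the members' median was 84 kb, against 61.2 kb for the regions of the ovarian part only and 62.8 kb for those of the testis only. The difference was described over 1 segmentation per tissue and was not tested.

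**Figure D4:**
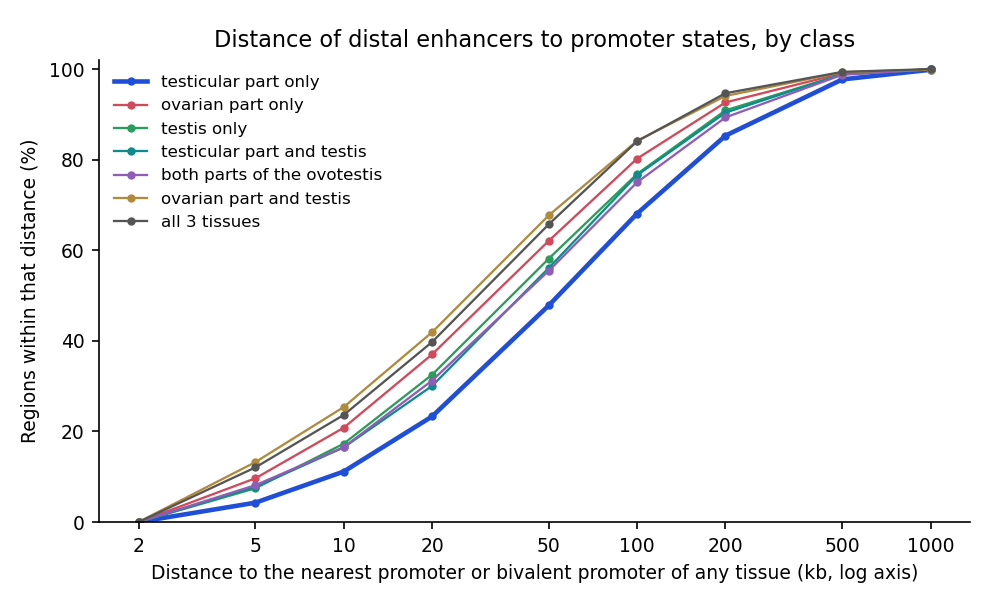
Percent of regions (y axis) within a given distance in kb (x axis, log scale) of the nearest promoter or bivalent promoter state of any tissue, for the 7 classes of merged distal regions; the thick line is the testicular part only. Its curve runs below the other 6 from 5 to 200 kb, with a median of 54.0 kb against 27 to 41.4 kb.

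The same pattern appeared in the placement of members over the genome. Of 19190 full windows of 100 kb on scaffolds of at least 1 Mb, 9489 (49.4%) held no promoter or bivalent promoter state in any tissue. These windows held 53.2% of the members there, but 38.8% of the regions of the ovarian part only, 42.3% of those of the testis only and 35.7% of those active in all 3 tissues. Members numbered 5.05 per Mb in such windows, 4.87 where promoter states took up to 2% of the window, 4.12 at 2 to 5% and 2.44 above 5%. Their density over its own mean was 1.08, 1.04, 0.878 and 0.521 in these steps. The other 6 classes were below their mean in windows without promoters, at 0.675 to 0.908 times, and above it at up to 2%. Above 5% they too were below their mean, from 0.600 for testicular part with testis to 0.966 for the ovarian part only. Windows dense in promoters have less room outside the 2 kb limit, which applies to all classes.

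**Figure D5:**
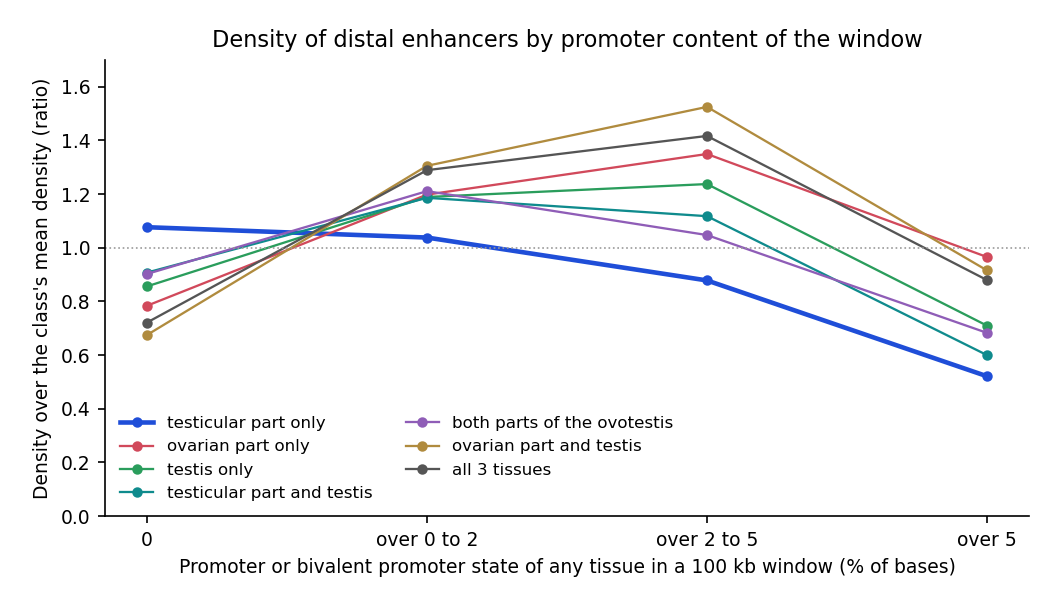
Density of distal regions in windows of 100 kb, as a ratio to the class's own mean (y axis), by the percent of the window in a promoter or bivalent promoter state of any tissue (x axis, 4 steps), for the 7 classes; the dotted line marks the mean. The testicular part only (thick line) is highest in windows without promoters, at 1.08, and falls to 0.521 above 5%. The other 6 classes start at 0.675 to 0.908 and lie at 0.600 to 0.966 above 5%.

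Within 50 kb on either side of the members, chromatin was richer in enhancer states and poorer in Polycomb state than the genome. With the members' own bases left out, the active states covered 8.15% of these flanks in the testicular part, 5.27% in the ovarian part, 7.76% in the testis. Relative to the genome's share, this was 1.43 times in the testicular part, 1.21 times in the ovarian part, 1.28 times in the testis. The genome's share still counts the members' own bases, which are active in the testicular part only. This lowers the ratio of the testicular part beside those of the other tissues. The flanks overlap where members are close. The poised state stood at 1.60 times the genome's share in the testicular part, 1.37 times in the ovarian part and 1.42 times in the testis. Promoter state was close to or below the genome's share, at 0.972 times in the testicular part, 0.860 in the ovarian part, 0.888 in the testis. The flanks of the regions of the ovarian part only held 1.39 times the genome's share of promoter state in the ovarian part and those of the testis only 1.36 times in the testis. Polycomb state was at 0.488 times in the testicular part, 0.621 in the ovarian part, 0.683 in the testis. The other classes of 1 tissue showed the same pattern in their own tissue. For the ovarian part only the ratios there were 1.68 for active, 1.61 for poised and 0.704 for Polycomb state. For the testis only they were 1.73, 1.75 and 0.586 in the testis. Around regions shared by testicular part and testis, Polycomb state was at 0.451 times in the testicular part.

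The promoters nearest to the members were mostly shared with the other tissues. The nearest promoter stretch of the testicular part was also a promoter, over at least 1 bin, in the ovarian part for 83.2% of the 9035 members on scaffolds with one, and in the testis for 79.3%. Several members can share a promoter, and 4055 promoter stretches were involved. Over all 16691 promoter stretches of the testicular part the share was 89.1% for the ovarian part, 85.9% for the testis. For the promoters nearest to regions active in all 3 tissues it was 85.4% in the ovarian part against 81.7% in the testis. The nearest promoter was in the bivalent or Polycomb state over at least 50% of its length in the ovarian part for 263 members (2.91%) and in the testis for 434 (4.80%). For regions shared by testicular part and testis these shares were 3.07% in the ovarian part against 3.04% in the testis, and for both parts of the ovotestis 1.90% in the ovarian part against 4.96% in the testis. For regions active in all 3 tissues they were 1.41% in the ovarian part against 2.33% in the testis. These shares count regions and not promoters, and were not taken over all promoter stretches of the testicular part. Whether the members' shares differ from that background is therefore not known.

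Members were spread evenly over the large scaffolds. On 15 of the 16 scaffolds of at least 10 Mb their density lay between 4.26 and 5.31 per Mb, and on scaffold 17 it was 3.26. The coefficient of variation over these 16 scaffolds was 9.86%, against 21.8% for the regions of the ovarian part only and 10.6% for those of the testis only. The members' share of all regions on a scaffold ranged more widely. It was 18.9% on scaffold 6, which had 25.6 regions per Mb, and 9.78% on scaffold 17, which had 33.4. Scaffold 17 also had the highest density of regions of the ovarian part only, with 5.63 per Mb.

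Members also stood near each other. Another member lay within 10 kb of 2185 of them (23.5%, Wilson interval 22.7 to 24.4). The same measure was 24.1% for the regions of the ovarian part only and 30.9% for those of the testis only, which differ in number. The nearest merged region was itself a member for 27.1%, where members made up 14.9% of regions. For 25.9% it was active in all 3 tissues (30.3% of regions), for 15.5% shared by testicular part and testis (14.8%), for 10.3% of the testis only (16.9%), for 9.17% shared by both parts (7.18%) and for 9.11% of the ovarian part only (12%).

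The 10 windows of 100 kb with most members held 6 to 10 each, as counted by where a region starts. In all, 7 windows held at least 7 and another 18 held 6, of which the 3 with most member bases were taken. The densest lay on scaffold 4 at 118600201 to 118700200, with 10 members, 1 region shared by testicular part and testis and 1 active in all tissues. Active states covered 19.4% of it in the testicular part, 2.0% in the ovarian part, 4.0% in the testis, and the poised state 66.6% in the testicular part, 39.4% in the ovarian part, 61.8% in the testis. On scaffold 11 at 6500201 to 6600200 all 6 regions were members, of 1000 to 3200 bp. Active states took 10.4% of that window in the testicular part and 0% in each of the other tissues, and the nearest promoter state of any tissue lay 189.6 kb from its edge. On scaffold 2 at 90500201 to 90600200, with 6 members, the values were 12.6% in the testicular part, 1.6% in the ovarian part, 1.2% in the testis.

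Windows with 7 members lay on scaffold 11 at 74500201 to 74600200, scaffold 9 at 58300201 to 58400200, scaffold 3 at 43200201 to 43300200, scaffold 14 at 63400201 to 63500200, scaffold 4 at 43400201 to 43500200 and scaffold 16 at 56100201 to 56200200. In the window of scaffold 11 the active states covered 31.8% in the testicular part, 11.2% in the ovarian part, 16.8% in the testis, with 6 regions active in all 3 tissues beside the members. The window of scaffold 16 also held 4 regions shared by both parts of the ovotestis, with 13% active in the testicular part, 3.0% in the ovarian part, 0.8% in the testis. The last of the 10 windows, on scaffold 4 at 122500201 to 122600200, held 6 members. Over the 10 windows there were 70 members, 4 regions of the ovarian part only and 0 of the testis only. The windows were chosen for their members, so an excess in the testicular part follows from the choice. In 6 of the 10 no promoter or bivalent promoter state of any tissue was present.

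The 10 longest members measured 4200 to 6600 bp, and 5 of them were poised over their whole length in both other tissues. The longest lay on scaffold 9 at 12087001 to 12093600, wholly poised in both other tissues. It was 2.2 kb from an active stretch of each and 12.4 kb from a promoter. The next, of 6200 bp on scaffold 6 at 47437201 to 47443400, was wholly poised in the ovarian part and over 87.1% in the testis. It stood 24.6 kb from the nearest active stretch of the ovarian part and 84 kb from that of the testis. On scaffold 7 at 22077001 to 22082600, a region of 5600 bp was wholly poised in both, with active stretches at 44.2 kb in the ovarian part and 43.6 kb in the testis.

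For 6 of the 10 longest, the nearest merged region was another member. On scaffold 7 at 66104201 to 66109200 the next member lay 1.2 kb away, and the nearest active stretch lay 33.0 kb away in the ovarian part and 186.4 kb away in the testis. On scaffold 1 at 31346801 to 31352000 the next member was 1.4 kb away, and on scaffold 3 at 49901801 to 49907000 it was 1.8 kb away. The region on scaffold 4 at 110666201 to 110670400 was poised over 42.9% and undefined over 57.1% in the ovarian part and wholly poised in the testis. The region on scaffold 6 at 54328401 to 54333400 lay 0.4 kb from a region shared by testicular part and testis. The others lay on scaffold 6 at 80347601 to 80353000 and on the small scaffold 450 at 4001 to 9000. In all, 14 members were at least 4200 bp long, and those of equal length were taken in genome order.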

How the data were processed

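ChIP-seq libraries of 4 histone marks from wild type mole gonads at postnatal day 7 were used as the authors' deposited segmentations, which hold state names and no counts, scores or other signal. Per the labels, 24 libraries of 3 tissues were combined into 3 tables. The submitters' processing notes name STAR 2.6.1d. For the mole tables, the segmentation tool is not given in the sources used here. All 3 cover the same 2099 Mb of talOcc4 on 4454 scaffolds.

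Regions were built and measured with Python 3.11.15, numpy 2.4.6, pandas 2.3.3 and scipy 1.17.1. Distances are the bases between nearest ends. The scripts were tested on simulated segmentations. Shares carry Wilson 95% intervals. No test was run, since each tissue has 1 segmentation.

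Named regions are the 10 longest members, the 10 windows of 100 kb with most members, the 5 longest mostly Polycomb and the 5 longest mostly undefined in both other tissues, and the 5 farthest from activity elsewhere. Members, lists and rules were chosen with earlier results of these data known. The mouse tables and the talOcc3 gene models were not used, and genes and sequences are not given because no genome or annotation of talOcc4 was used here.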

Additional observations from a re-analysis of the deposited data

How the results depend on the processing

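The calls rest on 1 segmentation per tissue of unknown depth, so weak marks and absent marks cannot be told apart, and libraries could not be left out. The active enhancer state covered 5.12% of bases in the testicular part, 3.69% in the ovarian part, 5.47% in the testis, and no signal was at hand to equalise them. No paired analysis was possible because the replicates are merged in the tables. Of 84 values under 12 other settings, 63 moved by less than their interval, or for the count by less than 1.5 times, and 21 moved by more. For the shares of poised bases the interval counts bins of 200 bp. Bins of the same region are not independent, so that interval is too narrow. The setting that counted only the active enhancer state as active could not change any value, since promoter states lie more than 2 kb away. Its values are among the 63. Of these 12 settings, the merging of touching segments and a distance of at least 2 kb were chosen after seeing the data.

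With a minimum of 1000 bp there were 4673 members in place of 9296, with a median of 1200 bp, 92.4% of bases poised in the ovarian part, 7.17% near an active stretch of another tissue, 16.7% near another member and a median of 87200 bp to a promoter of the testicular part, against 84000 bp. With a minimum of 200 bp, 9.35% were near an active stretch and 25.2% near another member. With no active base allowed within 1 kb, the poised share of bases was 91.0% for the ovarian part and 91.3% for the testis, 0% were near an active stretch by construction, and the promoter distance was 88400 bp. With up to 200 bp allowed, 91.1% were poised in the ovarian part and 13.3% were near an active stretch. With segments within 1 kb merged, the poised share was 90.9% for the ovarian part and 91.1% for the testis, 1.11% were near an active stretch, 19.5% near another member, and the promoter distance was 88400 bp. With touching segments merged, 7.89% were near an active stretch. With promoters over 5 kb away, the distance was 88800 bp.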

Other observations

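Of the 9296 members, 292 lay on scaffolds shorter than 1 Mb. On these 4435 scaffolds, which hold 71.4 Mb, the members lay on 247, or 4.09 members per Mb, against 2.70 per Mb for regions of the ovarian part only and 2.83 for those of the testis only. Members made up 19.3% of the 1515 merged regions there, and 14.9% of all merged regions. Outside the 9296, on the left-out scaffold 15 the same rule found 50 regions active in the testicular part only, or 0.562 per Mb, with 44 of the ovarian part only and 174 of the testis only. On scaffold 18 it found 1, with 2 of the ovarian part only and 21 of the testis only.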
